A study of Mus musculus with 11 samples.

Results

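The genes described here are 36 mouse genes of sugar breakdown and of the response to low oxygen, taken by name: 23 that carry glucose into the cell, split it by glycolysis and handle its lactate and pyruvate, and 13 of the hypoxia pathway. On the array each gene was read through a probe set, a group of short probes that match its transcripts. Of the 36 genes, 33 had a probe set assigned to that gene symbol alone that was not a control, among 18193 such genes in all, and the probe set of highest mean over the 11 arrays was used for each. The values were log2 signals, so a difference of 1 is a doubling. A gene was tested when its mean reached 4.3, the 40th percentile of all probe sets, and 31 of the 33 did. Eno2 (mean 3.54), the neuronal enolase, and Epas1 (mean 4.08), another oxygen-regulated alpha subunit, lay below it. The enolase Eno1 and the hexose phosphate isomerase Gpi1 had no probe set under their symbol alone and were not analysed here. Gapdh was read here by the array's control probe sets, which are given below with RNA quality and were not tested.

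The tissue came from C57BL/6 embryos, with no genetic change and no treatment beyond the dissection. Open neuroepithelium was the neural plate caudal to the point where its folds meet, and closed neural tube was a stretch starting a short way rostral to that point. The groups were open tissue at E8.5 (n = 3 arrays), closed tissue at E8.5 (n = 2), open tissue at E9.5 (n = 3) and closed tissue at E9.5 (n = 3). A further closed E8.5 array was removed by the authors for its quality. Each sample pooled embryos by litter, 111 embryos over the series, and kept the notochord, so the groups are bulk tissue. In such samples fewer cells of a type and less RNA per cell cannot be told apart. The embryos spent 5 min in pancreatin and trypsin at E8.5 and 8 min at E9.5, so stage and digestion time cannot be told apart.

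Glycolysis splits glucose into pyruvate, and lactate dehydrogenase turns pyruvate into lactate when it is not burned in the mitochondrion. Early mouse embryos rely strongly on this route, and tail-end progenitors in particular are known for high glycolytic activity. When oxygen is short, the prolyl hydroxylases stop marking the alpha subunits of hypoxia-inducible factor (HIF) for destruction. The alpha subunit then pairs with Arnt on DNA and switches on glucose transporters, glycolytic enzymes and genes that lower mitochondrial work.

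HIF binds a short core, ACGTG or GCGTG, in the promoters and enhancers of its targets. Of the 36 genes, 34 had a promoter entry in RefSeq (build GRCm38.p6), and Slc2a3 and Epas1 had none. The 250 bases before the start were searched on both strands, which finds the ACGTG core inside the symmetric CACGTG on each strand. ACGTG was in 44.9% of the 49 promoters of these genes and in 16.6% of all 32851 promoters. GCGTG was in 57.1% and 28.2% of them, either core in 77.6% and 38.6%, and CACGTG in 10.2% and 6.02%. The promoters of these genes were also richer in G and C (median 62.8%, against 52.4% over all), and no allowance was made for that. The 4 promoters below belong to genes that were lower in open tissue at E9.5 than at E8.5 (values follow), and capitals mark each core. They are the 250 bases before the start of Slc2a1 (chr4:119108495-119108744, plus strand), Bnip3 (chr7:138909507-138909756, minus strand), Higd1a (chr9:121857797-121858046, minus strand) and P4ha2 (chr11:54100674-54100923, plus strand), each written 5′ to 3′ along its gene. Pfkp, the fifth such gene, is not printed because its window lies inside the annotated span of the gene.
Slc2a1: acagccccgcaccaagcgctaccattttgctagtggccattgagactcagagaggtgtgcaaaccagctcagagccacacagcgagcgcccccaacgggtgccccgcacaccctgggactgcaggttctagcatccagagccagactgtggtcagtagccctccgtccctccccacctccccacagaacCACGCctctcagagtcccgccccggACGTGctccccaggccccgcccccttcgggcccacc
Bnip3: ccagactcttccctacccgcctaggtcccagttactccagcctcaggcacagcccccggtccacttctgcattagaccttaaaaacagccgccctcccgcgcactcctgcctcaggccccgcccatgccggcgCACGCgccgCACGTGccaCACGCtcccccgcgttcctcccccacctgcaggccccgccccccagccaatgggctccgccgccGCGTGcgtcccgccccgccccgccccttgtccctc
Higd1a: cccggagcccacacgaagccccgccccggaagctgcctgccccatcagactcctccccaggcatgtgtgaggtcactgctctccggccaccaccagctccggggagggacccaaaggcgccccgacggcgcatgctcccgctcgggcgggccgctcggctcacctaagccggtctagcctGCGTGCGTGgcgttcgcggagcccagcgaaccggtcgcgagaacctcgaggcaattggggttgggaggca
P4ha2: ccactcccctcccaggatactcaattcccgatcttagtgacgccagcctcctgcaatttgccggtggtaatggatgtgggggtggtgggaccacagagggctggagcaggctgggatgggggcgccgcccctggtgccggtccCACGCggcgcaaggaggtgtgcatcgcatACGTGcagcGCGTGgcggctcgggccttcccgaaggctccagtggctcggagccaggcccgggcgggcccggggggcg
The Slc2a1 promoter held ACGTG once, with its first base 36 bases before the start, and GCGTG once on the other strand, 61 bases before it. Bnip3 held 2 matches of ACGTG, both in a single CACGTG, and 3 of GCGTG. Higd1a held GCGTG 2 times in overlapping copies, 70 and 66 bases before the start. P4ha2 held ACGTG once and GCGTG 2 times. These matches are letters in the reference and not sites of measured binding.

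RNA quality differed within groups. The control probe sets at the 3′ and 5′ ends of the Gapdh and Actb transcripts give a measure of how far labelled RNA extends, since the 5′ signal drops when RNA is short. The mean 3′ minus 5′ difference was 1.32, 1.15 and 1.30 in open E8.5 replicates 1 to 3, and 1.82 and 1.18 in closed E8.5 replicates 1 and 2. It was 2.20 and 2.48 in open E9.5 replicates 1 and 2 but 1.14 in replicate 3, and 1.72, 1.44 and 1.20 in closed E9.5 replicates 1 to 3. Open E9.5 replicate 3 thus lay just below the open E8.5 arrays on this measure, and the other open E9.5 arrays far above them. Gapdh itself, the glyceraldehyde-3-phosphate dehydrogenase, had a 3′ signal of 13.91, 13.97 and 13.90 in open E8.5 and 13.80, 13.64 and 13.94 in open E9.5. Its 5′ signal was 12.51, 12.78 and 12.48 in open E8.5 and 11.59, 11.18 and 12.59 in open E9.5. The 3′ signal differed little between these groups, while the 5′ signal was lower in open E9.5 replicates 1 and 2 and not in replicate 3.

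All 13 neural progenitor markers were above the filter, and their summed signal (log2 of the sum) was 12.74 to 12.81 in open E8.5, 12.74 to 12.85 in open E9.5, 13.64 to 13.73 in closed E8.5 and 13.54 to 13.59 in closed E9.5. Of 10 blood markers 5 were above the filter, with a summed signal of 8.31 to 9.73 in open E8.5, 9.77 to 9.94 in closed E8.5, 12.31 to 12.85 in open E9.5 and 11.20 to 12.52 in closed E9.5. Of 12 endothelial markers 6 were above it (8.17 to 8.58 over all arrays), and Tek, Cdh5, Pecam1 and Emcn were below it. Of 12 surface ectoderm markers 11 were above it, at 10.85 to 11.21 in open E8.5, 10.17 to 10.41 in open E9.5, 10.42 to 10.66 in closed E8.5 and 10.22 to 10.59 in closed E9.5. All 7 notochord markers were above it, at 11.49 to 11.90, 10.88 to 11.21, 10.78 to 11.16 and 11.42 to 11.78 in the same order. Of 15 presomitic and somite mesoderm markers 11 were above it, at 10.57 to 10.94, 10.07 to 10.69, 11.84 to 12.15 and 11.53 to 11.67. Of 9 endoderm markers 7 were above it, at 9.83 to 10.16, 9.61 to 9.80, 9.75 to 10.03 and 9.64 to 9.89. Between open E8.5 and open E9.5 the summed signal of the blood markers was thus higher, without overlap. The sums of the surface ectoderm, notochord and endoderm markers were lower, each without overlap. Of the 11 tested surface ectoderm markers 9 had a negative difference there. Krt8 had means of 9.32 and 8.30 and Tfap2c 7.75 and 6.67 in open E8.5 and open E9.5. Epcam had 7.61 and 7.79, and Grhl3 7.04 and 7.04. The lists share genes: Krt8 and Krt18 are in both the surface ectoderm and notochord lists, Cldn6 in both the surface ectoderm and endoderm lists, and Foxa2 in both the notochord and endoderm lists. The endoderm sum includes Cldn6, whose mean was 8.03 in open E8.5 and 6.80 in open E9.5, while that of Foxa1 was 8.02 and 8.41. Of the tested markers 3 of 5 for blood rose there, and 2 of 11 for surface ectoderm, 3 of 7 for notochord and 0 of 7 for endoderm fell, where 3.61% of all genes rose and 1.42% fell. Among the neural progenitor markers 2 of 13 rose and 2 fell, and among the mesoderm markers 1 of 11 rose and 1 fell. Between the regions the mesoderm markers went both ways. In closed tissue 2 were higher and 2 lower at E8.5 (3.79% and 3.38% of all genes), and 3 higher and 2 lower at E9.5 (2.75% and 5.79%). Open and closed E8.5 means were 7.59 and 11.08 for Aldh1a2 and 4.86 and 9.08 for Pcdh8. For Dll3 they were 9.52 and 5.66, and for Tbx6 6.58 and 4.35. The part of these markers in the differences below was not tested.

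In open tissue, 5 of the 31 genes fell from E8.5 to E9.5 and 0 rose: Slc2a1, Pfkp, Higd1a, P4ha2 and Bnip3. That is 16.1%, against 5.02% of all 13338 genes tested in either direction, 1.42% that were lower and 3.61% that were higher (limma, Benjamini-Hochberg adjusted p under 0.05). The 31 genes had a median difference of -0.34, against -0.024 over all genes tested, and 24 of the 31 were negative. In closed tissue 0 of 31 passed limma's test in the same comparison, where 2.42% of all genes did (0.96% higher, 1.46% lower). There 7 of the 31 had an unadjusted p under 0.05 in limma, each with a negative difference. Among all 13338 genes, the member Kdm3a (unadjusted p = 0.0481) ranked 1321 by p in that comparison. The median of the 31 was -0.10, against -0.029 over all genes tested, and 26 of 31 were negative. The share of negative signs over all genes was not counted in either region. Between the regions at E8.5, Slc2a3 and Pfkp were lower and Ldhb higher in closed tissue (3 of 31, or 9.68%, against 7.17% of all genes, 3.79% higher and 3.38% lower). At E9.5 Slc2a1 and Higd1a were higher and Slc2a3 and Ddit4 lower in closed tissue (4 of 31, or 12.9%, against 8.54%, 2.75% higher and 5.79% lower). Both shares between regions are near the background. With the replicate number within stage as a block, 6 genes passed between regions at E8.5 (Bnip3, Ldhb, P4ha2, Pfkp, Slc2a3 and Vegfa) and 7 at E9.5 (Bnip3, Slc16a1 and Vegfa beside the 4 above). For 1 gene, Slc2a1, the region difference itself changed between the stages, where 1.25% of all genes did (0.3% upward, 0.952% downward); with that block Higd1a and Ldhb passed too. The open stage comparison and the E9.5 region comparison share the open E9.5 arrays, and each other pair of neighbouring comparisons shares a group in the same way.

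**Figure D1:**
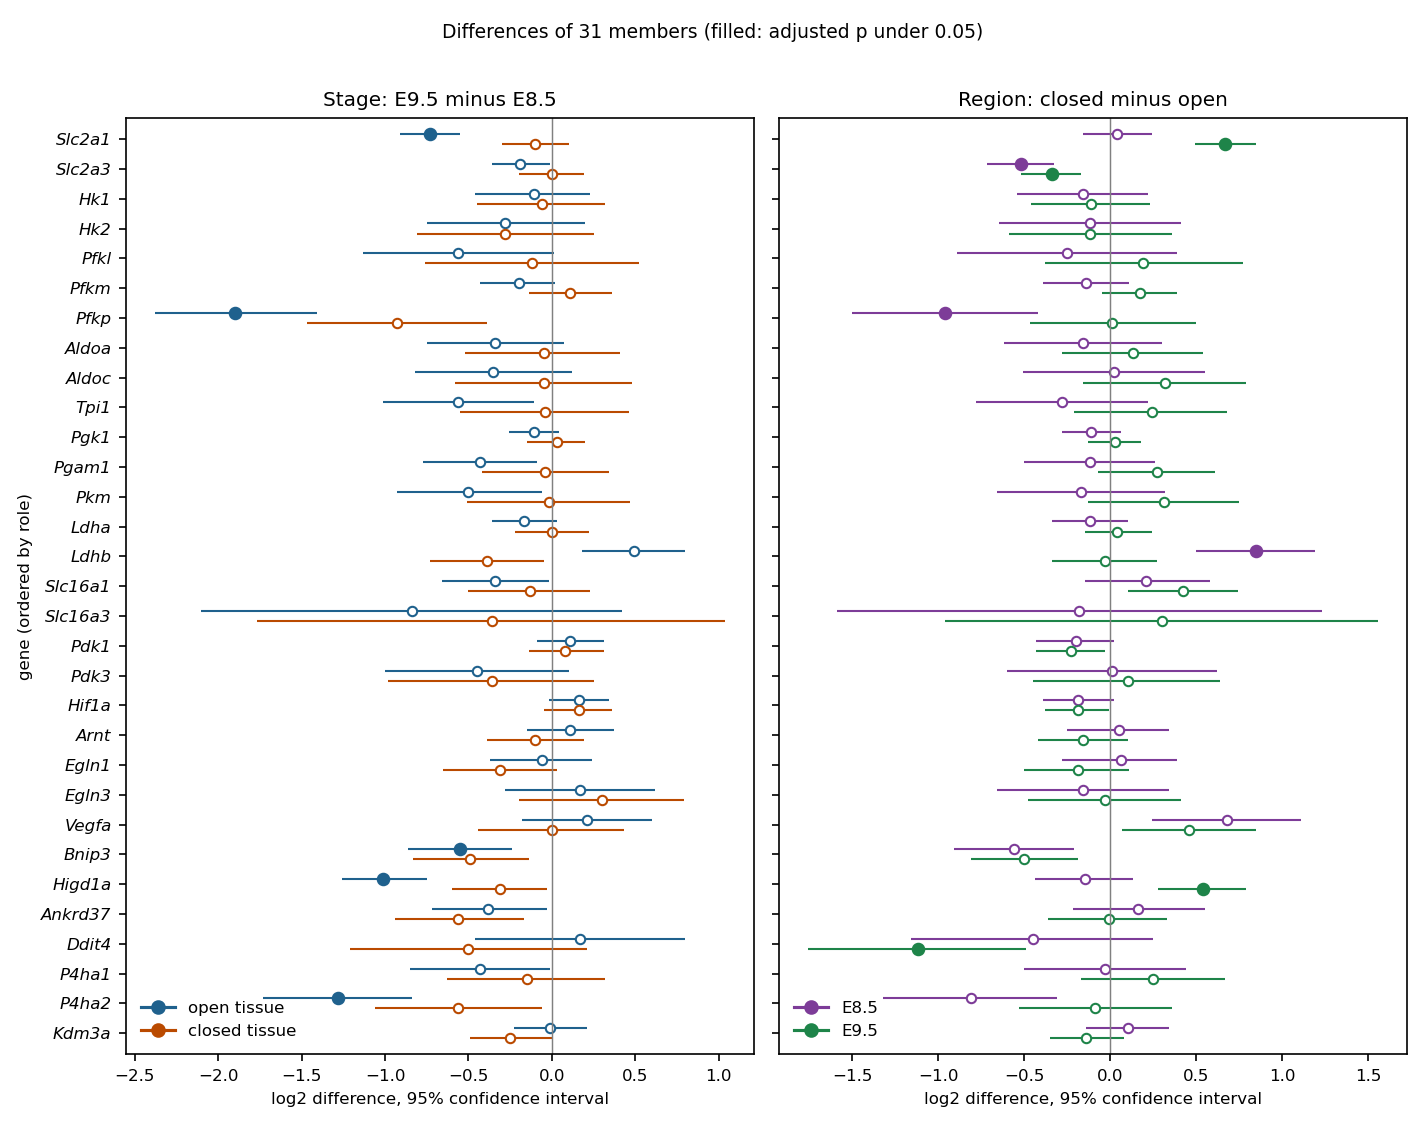
Log2 differences of the 31 tested genes with 95% confidence intervals, E9.5 minus E8.5 in each region (left) and closed minus open at each stage (right), with filled points for an adjusted p under 0.05. In open tissue the filled points of Pfkp (-1.90), P4ha2 (-1.28), Higd1a (-1.01), Slc2a1 (-0.73) and Bnip3 (-0.55) lie left of 0, and no point of closed tissue on the left panel is filled.

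Glucose enters the cells through transporters of the Slc2a family. Slc2a1 encodes GLUT1, the main glucose transporter of the early embryo and of brain barriers. Its signal was 13.03, 12.88 and 13.07 in open E8.5, 12.98 and 13.08 in closed E8.5, 12.25, 12.22 and 12.32 in open E9.5, and 13.08, 12.88 and 12.83 in closed E9.5. The open E9.5 arrays stood alone below the other 8, whose values overlapped. In open tissue Slc2a1 fell by 0.73 (SE 0.08, a fold of 1.66, adjusted p = 0.000316 in limma), with all 3 open E9.5 arrays below all 3 open E8.5 arrays, and replicate 3 differed from the open E8.5 mean by -0.68 against -0.76 for replicates 1 and 2. At E9.5 it was higher in closed than in open tissue by 0.67 (SE 0.08, adjusted p = 0.000203). In closed tissue the stage difference was -0.10 (SE 0.09, adjusted p = 0.924), and at E8.5 the region difference was 0.04 (SE 0.09, adjusted p = 0.971). The change of the region difference between stages was 0.63 (SE 0.12, adjusted p = 0.0309).

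That last call was not firm: it was lost on leaving out any of open E8.5 replicate 1 (adjusted p = 0.101), open E8.5 replicate 3 (0.100), closed E8.5 replicate 1 (0.107), closed E8.5 replicate 2 (0.0667), open E9.5 replicate 1 (0.0788), open E9.5 replicate 2 (0.0779), closed E9.5 replicate 1 (0.0576) or closed E9.5 replicate 2 (0.0609). It was also lost with each array centred on its median (0.0513), with the replicate number across stages as a block (0.058), and when replicate 3 was the sole open E9.5 array (0.239). The fall in open tissue and the region difference at E9.5 passed under every alternative run. The fall in open tissue thus also passed when replicate 3 was its sole E9.5 array.

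The other probe sets of Slc2a1 gave the same direction with other sizes. For the probe set next in level, the stage difference in open tissue was -1.20 (SE 0.18, adjusted p = 0.00421 with each probe set tested on its own). For the third it was -2.12 (SE 0.58, adjusted p = 0.0823), with 12.18, 12.69 and 12.30 in open E8.5 and 9.73, 9.29 and 11.79 in open E9.5. On the third the open E9.5 arrays lay below the open E8.5 arrays as well, but replicates 1 and 2, the arrays of high 3′ minus 5′ signal, stood far below replicate 3.

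**Figure D2:**
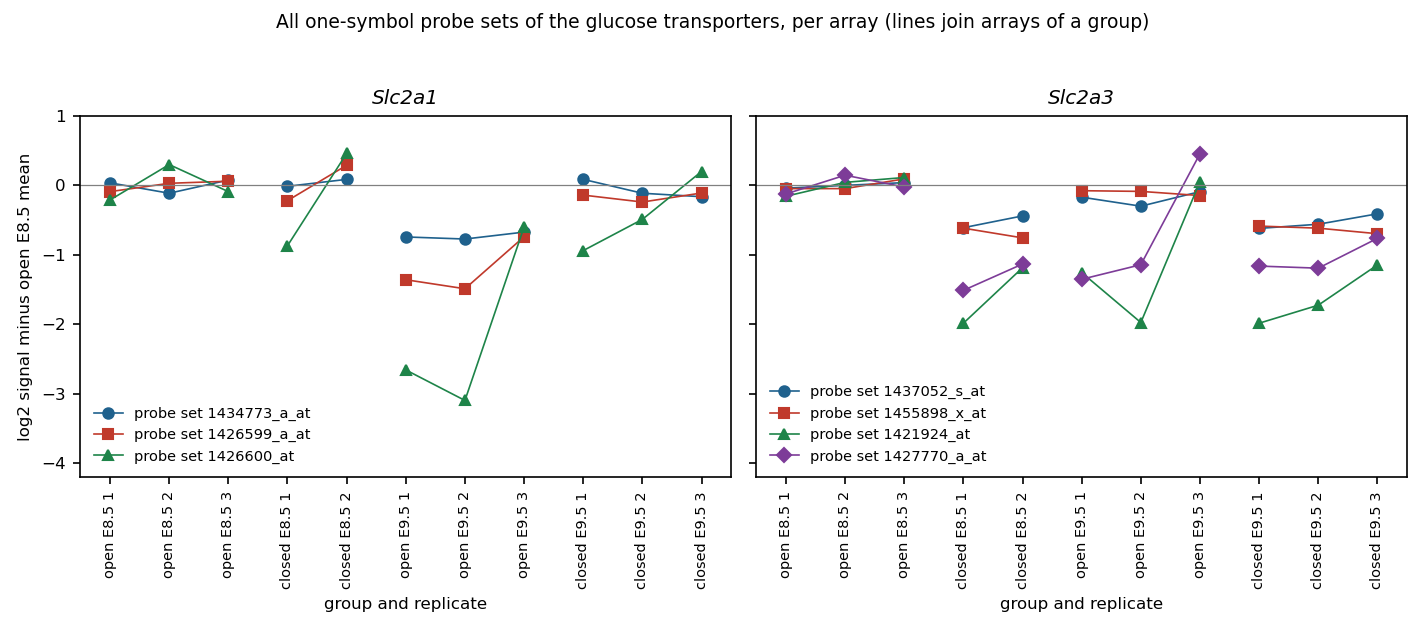
Log2 signal of each one-symbol probe set of Slc2a1 and Slc2a3 in each array, minus that probe set's open E8.5 mean; lines join the arrays of a group. For Slc2a1 the 3 probe sets lie close together in open E9.5 replicate 3 and apart in replicates 1 and 2, and for Slc2a3 the 4 probe sets lie below 0 in every closed array.

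Slc2a3 encodes GLUT3, a transporter of high affinity found in early embryos and neurons. Its signal was 13.29, 13.33 and 13.37 in open E8.5, 12.72 and 12.89 in closed E8.5, 13.16, 13.03 and 13.24 in open E9.5, and 12.71, 12.77 and 12.92 in closed E9.5. Every open array lay above every closed array. Slc2a3 was lower in closed tissue by 0.52 at E8.5 (difference -0.52, SE 0.09, adjusted p = 0.00292) and by 0.34 at E9.5 (difference -0.34, SE 0.08, adjusted p = 0.0187). The E8.5 call held under every alternative run. The E9.5 call was lost without open E9.5 replicate 1 (adjusted p = 0.0721), closed E9.5 replicate 1 (0.0787) or closed E9.5 replicate 2 (0.0748), and with the mean of all its probe sets (0.279). Its stage difference was -0.19 in open tissue (adjusted p = 0.248) and 0.00 in closed tissue. The 4 probe sets of Slc2a3 gave region differences at E8.5 of -0.52, -0.69, -1.58 and -1.32, of which the last 2 did not pass when each was tested on its own (adjusted p = 0.114 and 0.138). The transporters thus differed in pattern, with Slc2a3 lower in closed tissue at both stages and Slc2a1 low in open tissue at E9.5. The difference between those patterns was not tested.

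**Figure D3:**
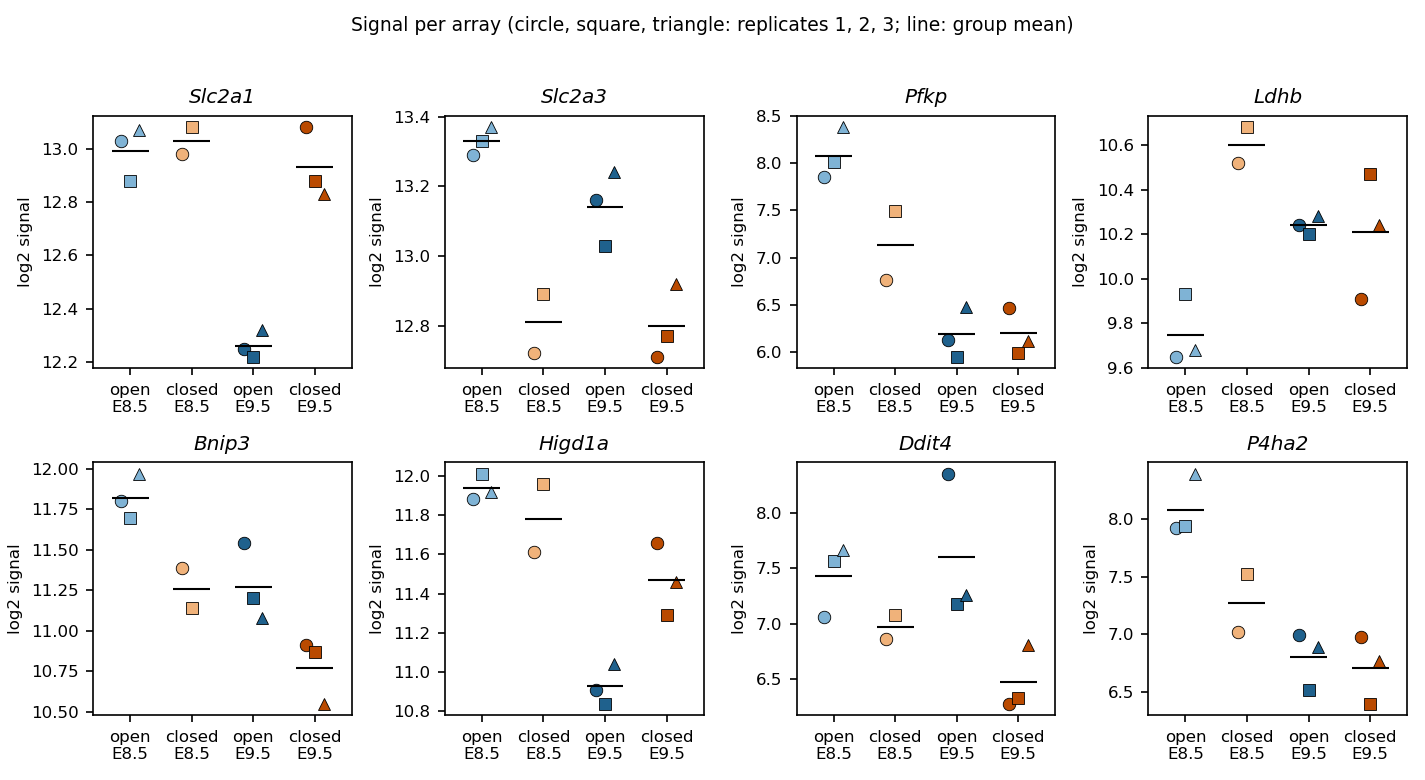
Log2 signal per array of the 8 genes past the threshold in at least 1 comparison, by group, with circles, squares and triangles for replicates 1, 2 and 3 and a line at the group mean; each panel has its own axis. Slc2a1 is low only in the open E9.5 arrays, and Slc2a3 is lower in closed than in open arrays at both stages. Pfkp and P4ha2 have lower signals in both E9.5 groups than in open E8.5, though closed E9.5 was not tested against open E8.5.

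Hexokinases trap glucose by phosphorylation. Hk2, the inducible form, had group means of 11.16 (SD 0.32) in open E8.5, 11.05 (SD 0.60) in closed E8.5, 10.89 (SD 0.25) in open E9.5 and 10.77 (SD 0.13) in closed E9.5. Hk1, the constitutive form, had 7.91 (SD 0.24), 7.74 (SD 0.23), 7.79 (SD 0.20) and 7.68 (SD 0.09). Neither passed in any of the 5 comparisons. The stage difference of Hk2 was -0.28 in open and -0.28 in closed tissue, with 95% intervals of -0.75 to 0.20 and -0.81 to 0.25.

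The hexose phosphate steps run from phosphofructokinase, which commits sugar to glycolysis, to aldolase, which splits it. The platelet-type phosphofructokinase Pfkp had a signal of 7.85, 8.01 and 8.38 in open E8.5, 6.76 and 7.49 in closed E8.5, 6.13, 5.95 and 6.48 in open E9.5, and 6.47, 5.99 and 6.12 in closed E9.5. Open E8.5 was highest and closed E8.5 between it and the E9.5 groups, which overlapped. In open tissue Pfkp fell by 1.90 (SE 0.22, a fold of 3.72, adjusted p = 0.00043), the largest difference among the 31 genes in any of the 5 comparisons. Replicate 3 differed from the open E8.5 mean by -1.60, against -2.04 for replicates 1 and 2. At E8.5 it was lower in closed tissue (-0.96, SE 0.25, adjusted p = 0.0374), a call lost with the second probe set (-0.13, adjusted p = 0.807), with the replicate number across stages as a block (0.0758), or without open E8.5 replicate 2 (0.0819), open E8.5 replicate 3 (0.148), closed E8.5 replicate 1 (0.306), open E9.5 replicate 1 (0.0589), closed E9.5 replicate 2 (0.0509) or closed E9.5 replicate 3 (0.0537). The stage difference in closed tissue was -0.93 (SE 0.25, adjusted p = 0.0904), and it passed without closed E8.5 replicate 1 (-1.29, adjusted p = 0.0352) and after quantile normalization (0.0495). A second probe set of Pfkp, at a mean of 4.62 just above the filter, gave -0.12 in open tissue (SE 0.09).

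The liver and muscle forms of phosphofructokinase did not follow Pfkp past the threshold. Pfkl had 12.37, 12.78 and 12.54 in open E8.5 and 11.89, 11.45 and 12.66 in open E9.5, a difference of -0.56 (SE 0.26, adjusted p = 0.298). Replicate 3 of open E9.5 lay inside the open E8.5 range, 0.10 above its mean, and replicates 1 and 2 lay below it by 0.89 on average (difference -0.89). Pfkm differed by -0.20 in open tissue (SE 0.10, adjusted p = 0.335) and by 0.11 in closed tissue. Aldoa, the main aldolase, differed by -0.34 in open tissue (SE 0.19, adjusted p = 0.388), and its replicate 3 (12.90) lay 0.02 above the open E8.5 mean of 12.88. Aldoc, the brain aldolase, differed by -0.35 (SE 0.22, adjusted p = 0.441), with replicate 3 at -0.01. None of these 4 genes passed between the regions at either stage.

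The triose phosphate steps earn the ATP of glycolysis. Tpi1, triose phosphate isomerase, had 13.28, 13.51 and 13.40 in open E8.5 and 12.76, 12.46 and 13.30 in open E9.5. Pgam1, phosphoglycerate mutase, had 12.94, 13.02 and 13.11, then 12.54, 12.26 and 12.97. Pkm, pyruvate kinase, had 13.31, 13.27 and 13.37, then 12.88, 12.28 and 13.29. For each of these genes replicates 1 and 2 of open E9.5 lay below the open E8.5 range and replicate 3 inside it. The stage differences in open tissue were -0.56 for Tpi1 (SE 0.21, adjusted p = 0.171), -0.43 for Pgam1 (SE 0.16, adjusted p = 0.163) and -0.50 for Pkm (SE 0.20, adjusted p = 0.214). In closed tissue they were -0.04, -0.04 and -0.02. Between regions at E9.5 Pgam1 differed by 0.27 (adjusted p = 0.403), and it passed without open E9.5 replicate 3 (0.46, adjusted p = 0.0327). Pgk1, phosphoglycerate kinase, differed by -0.11 in open tissue (95% interval -0.26 to 0.04) and by 0.03 in closed tissue (-0.15 to 0.20), the narrowest intervals of these steps. Unlike the other 3, its replicate 3 (13.61) lay below the open E8.5 range and its replicate 1 (13.73) inside it. Eno2, below the filter, ranged from 3.41 to 3.70 over the 11 arrays.

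Open E9.5 replicate 3, whose RNA quality matched E8.5, gave different answers for different genes. For all 5 genes that fell in open tissue, replicate 3 lay below all 3 open E8.5 arrays. Replicate 3 is itself among the arrays by which they were called, so the contrast with the genes that were not called is partly set by that choice. Of the other 17 glycolysis genes, 14 had replicate 3 within the open E8.5 range, 2 below it (Slc2a3 and Pgk1) and 1 above it (Ldhb). Their median difference from the open E8.5 mean was -0.03 in replicate 3 and -0.52 in replicates 1 and 2. Of the other 9 hypoxia genes, 3 were within the range, 4 below it and 2 above it, with medians of -0.15 in replicate 3 and 0.09 in replicates 1 and 2. Without open E9.5 replicate 3, 9 genes passed in place of 5: Pfkl, Pgam1, Pkm, Slc16a1 and Tpi1 were added and Bnip3 was lost (adjusted p = 0.0747). Without replicates 1 and 2 the genes that passed were Slc2a1, Pfkp and Higd1a, while P4ha2 (-1.19, adjusted p = 0.091) and Bnip3 (-0.74, adjusted p = 0.091) did not.

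**Figure D4:**
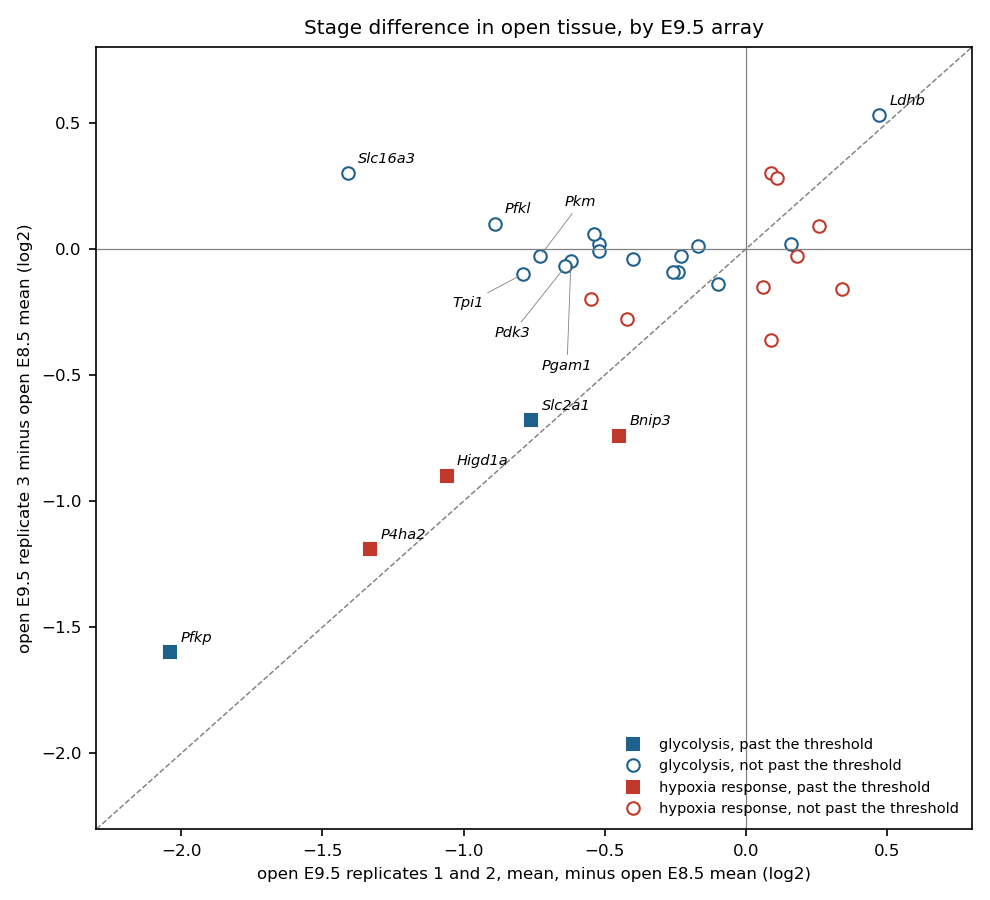
Difference from the open E8.5 mean of the 31 tested genes, for open E9.5 replicates 1 and 2 (their mean, horizontal axis) and for replicate 3 (vertical axis), in log2; filled squares passed the open stage test and the dashed line marks equal values. The 5 filled squares lie near the dashed line, while Pfkl (0.10 against -0.89), Tpi1 (-0.10 against -0.79) and Slc16a3 (0.30 against -1.41) lie near or above 0 in replicate 3 only.

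The same split appeared in the other groups. In closed E8.5, replicate 1, of high 3′ minus 5′ signal, lay below replicate 2 for 17 of the 19 glycolysis genes (89.5%), against 48% of all genes tested. In open E9.5, replicates 1 and 2 both lay below replicate 3 for 17 of 19 (89.5%), against 37.7%. In closed E9.5 they did so for 13 of 19 (68.4%), against 33.9%. For the 12 hypoxia genes the counts were 8 (66.7%), 4 (33.3%) and 4 (33.3%). The median SD of the glycolysis genes was 0.28 in closed E8.5 and 0.27 in open E9.5, against 0.18 and 0.17 over all genes. In open E8.5 and closed E9.5 it was 0.11 and 0.13, against 0.13 and 0.14 over all genes. Whether RNA quality caused this was not tested.

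**Figure D5:**
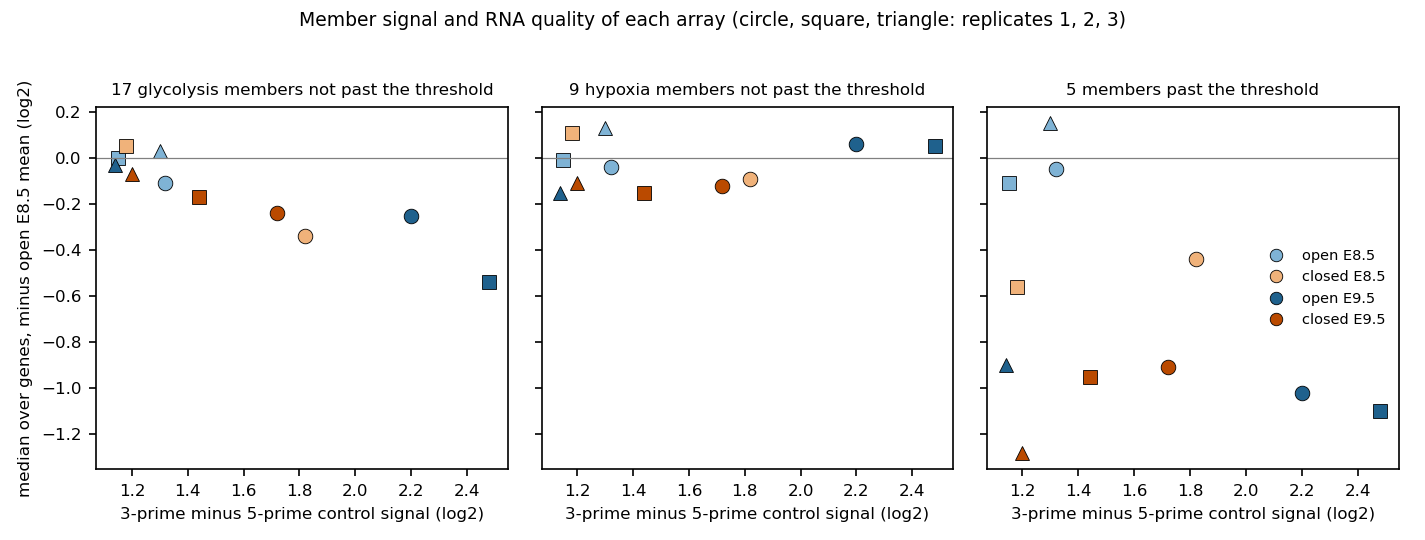
Median over genes of the log2 difference from the open E8.5 mean (vertical axis) against the 3′ minus 5′ control signal of each array (horizontal axis), for 17 glycolysis genes and 9 hypoxia genes that did not pass the open stage test and for the 5 that did. The median of the 17 glycolysis genes runs from 0.05 in closed E8.5 replicate 2 to -0.54 in open E9.5 replicate 2. That of the 5 genes lies between -0.90 and -1.28 in all 6 E9.5 arrays.

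The 5 genes that fell in open tissue had medians of -1.02, -1.10 and -0.90 in open E9.5 and of -0.91, -0.95 and -1.28 in closed E9.5, each as the difference from the open E8.5 mean. In closed E8.5 their medians were -0.44 and -0.56. Behind these medians the genes differed. In closed E9.5 the means of Slc2a1, Higd1a and Pfkp were 12.93, 11.47 and 6.20, against 12.99, 11.94 and 8.08 in open E8.5. The 5 genes were chosen by the open stage comparison, which used the same open E8.5 mean. Both the open and the closed values thus describe that choice and are no separate evidence.

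Lactate is made by lactate dehydrogenase and moved by monocarboxylate transporters. Ldhb encodes the heart-type subunit, which favours the turn of lactate back to pyruvate. Its signal was 9.65, 9.93 and 9.68 in open E8.5, 10.52 and 10.68 in closed E8.5, 10.24, 10.20 and 10.28 in open E9.5, and 9.91, 10.47 and 10.24 in closed E9.5. At E8.5 Ldhb was higher in closed tissue by 0.85 (SE 0.16, a fold of 1.80, adjusted p = 0.00533), the only gene of the 31 that was higher there, and at E9.5 the difference was -0.03 (SE 0.14, adjusted p = 0.931). Without closed E8.5 replicate 2 the E8.5 call was lost (0.76, adjusted p = 0.059). In open tissue Ldhb differed between stages by 0.49 (SE 0.14, adjusted p = 0.0756) with all E9.5 arrays above all E8.5 arrays, and in closed tissue by -0.39 (SE 0.16, adjusted p = 0.373) with all E9.5 arrays below. Such non-overlap, in either direction, was met by 21.8% of all genes in open and 21.2% in closed tissue. The region difference of Ldhb changed between stages by -0.88 (SE 0.21, adjusted p = 0.0886), short of the threshold. Without closed E9.5 replicate 1 the stage difference in open tissue passed (adjusted p = 0.0367), as it did with the replicate number across stages as a block (0.0494). The change between stages passed without closed E9.5 replicate 2 (-1.01, adjusted p = 0.0486) and with the number within stage as a block (-0.84, adjusted p = 0.0227). Its 4 probe sets gave 0.85, 0.84, 0.98 and 0.95 at E8.5, and each passed when tested on its own. In the same fit 2 of the 4 also passed in open tissue between stages (0.79, adjusted p = 0.00702, and 0.64, adjusted p = 0.0328), and 1 passed for the change between stages (-1.17, adjusted p = 0.0253). Replicate 3 of open E9.5 (10.28) was above the open E8.5 range, as were replicates 1 and 2.

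Ldha, the muscle-type subunit that makes lactate, had a mean of 13.78 (SD 0.04) in open E8.5, 13.66 (SD 0.24) in closed E8.5, 13.61 (SD 0.14) in open E9.5 and 13.66 (SD 0.05) in closed E9.5. Its differences between groups ran from -0.17 in the open stage comparison (adjusted p = 0.373) to 0.04 at E9.5 between regions, the region difference changed between stages by 0.17 (adjusted p = 0.764), and none passed. Slc16a1, which encodes the lactate carrier MCT1, had 11.03, 11.04 and 11.63 in open E9.5 and 11.58, 11.66 and 11.72 in closed E9.5, a difference of 0.42 (SE 0.15, adjusted p = 0.12). It passed without open E9.5 replicate 3 (0.62, adjusted p = 0.002), since that array lay within the closed range, and with the replicate number within stage as a block (0.42, adjusted p = 0.0157). Slc16a3, which encodes the exporter MCT4, had the largest SE of the 31 genes (0.57 in the open stage comparison), with 7.44 and 9.45 in closed E8.5 and 7.56, 6.87 and 8.93 in open E9.5. Its open stage difference of -0.84 had a 95% interval from -2.10 to 0.42.

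Pyruvate dehydrogenase kinases hold pyruvate back from the mitochondrion. Pdk1 had means of 10.46 (SD 0.07), 10.26 (SD 0.08), 10.57 (SD 0.08) and 10.34 (SD 0.08) in open E8.5, closed E8.5, open E9.5 and closed E9.5. Its closed arrays lay below its open arrays at each stage, by differences of -0.20 (adjusted p = 0.432) and -0.23 (adjusted p = 0.191), short of the threshold. Non-overlap of this kind between the regions was met by 27.5% of all genes at E8.5 and 22.5% at E9.5. Pdk3 differed by -0.45 in open tissue (SE 0.25, adjusted p = 0.391) and its replicate 3 lay 0.07 below the open E8.5 mean (difference -0.07).

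The genes of oxygen sensing did not pass in any of the 5 comparisons. Hif1a, the oxygen-regulated subunit, had 11.47, 11.47 and 11.55 in open E8.5, 11.33 and 11.28 in closed E8.5, 11.56, 11.62 and 11.79 in open E9.5, and 11.41, 11.45 and 11.53 in closed E9.5. Its closed arrays lay below its open arrays at each stage (-0.19, SE 0.09, adjusted p = 0.403 at E8.5; -0.19, SE 0.08, adjusted p = 0.226 at E9.5). Its E9.5 arrays lay above its E8.5 arrays in open tissue (0.16, adjusted p = 0.352) and in closed tissue (0.16, adjusted p = 0.722). Non-overlap in either direction was met by 27.5% (earlier) and 22.5% (later stage) of all genes between the regions. Between the stages it was 21.8% in open and 21.2% in closed tissue. Other Hif1a probe sets, by falling level, gave stage differences of 0.33, 0.48 and -0.63 (open) and 0.11, -0.22 and -0.32 (closed). Their region differences were -0.22, 0.11 and -0.67 for the earlier stage, then -0.45, -0.59 and -0.36. None passed when each was tested on its own. Arnt, the partner of Hif1a, had means of 7.28, 7.33, 7.39 and 7.23, with differences between groups from -0.16 to 0.11. HIF is controlled mainly through the stability of its protein, which these arrays do not read.

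Egln1, the main prolyl hydroxylase, had means of 10.87 (SD 0.15) in open E8.5, 10.92 (SD 0.18) in closed E8.5, 10.80 (SD 0.26) in open E9.5 and 10.61 (SD 0.10) in closed E9.5. Its differences ran from -0.31 (closed stage, adjusted p = 0.568) to 0.06. Egln3, a hydroxylase that HIF itself induces, had means of 7.05, 6.89, 7.22 and 7.19, and its stage difference was 0.17 in open (95% interval -0.28 to 0.62) and 0.30 in closed tissue (-0.20 to 0.79).

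Of the 8 other hypoxia targets, 3 fell in open tissue from E8.5 to E9.5 (37.5%, against 1.42% of all genes). Higd1a encodes a small mitochondrial inner membrane protein that supports the respiratory chain in low oxygen. Its signal was 11.88, 12.01 and 11.92 in open E8.5, 11.61 and 11.96 in closed E8.5, 10.91, 10.84 and 11.04 in open E9.5, and 11.66, 11.29 and 11.46 in closed E9.5. As for Slc2a1, the open E9.5 arrays lay below all others. It fell in open tissue by 1.01 (SE 0.12, a fold of 2.01, adjusted p = 0.000423), and at E9.5 it was higher in closed tissue by 0.54 (SE 0.12, adjusted p = 0.0124). The open stage call held under every alternative run. The E9.5 region call was lost without open E9.5 replicate 1 (adjusted p = 0.0502), open E9.5 replicate 2 (0.0511) or closed E9.5 replicate 1 (0.0558), and with replicate 3 as the sole open E9.5 array (0.43, adjusted p = 0.244). The region difference changed between stages by 0.69 (SE 0.17, adjusted p = 0.114), which passed with the replicate number within stage as a block (0.70, adjusted p = 0.0166). A second probe set fell in open tissue by 0.83 and in closed tissue by 0.75 (differences -0.83 and -0.75, adjusted p = 0.00385 and 0.0248 with each probe set tested on its own), whereas the probe set used gave -0.31 in closed tissue (SE 0.13, adjusted p = 0.397).

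P4ha2 encodes a subunit of the enzyme that hydroxylates proline in collagen. Its signal was 7.92, 7.94 and 8.39 in open E8.5, 7.02 and 7.52 in closed E8.5, 6.99, 6.52 and 6.89 in open E9.5, and 6.98, 6.40 and 6.77 in closed E9.5. As for Pfkp, open E8.5 lay above all other arrays. It fell in open tissue by 1.28 (SE 0.20, a fold of 2.44, adjusted p = 0.0033), with replicate 3 at -1.19 and replicates 1 and 2 at -1.33 from the open E8.5 mean. At E8.5 the closed arrays lay below the open ones, a non-overlap met by 27.5% of all genes in either direction. The difference was -0.81 (SE 0.23, adjusted p = 0.0568), short of the threshold. It passed without closed E8.5 replicate 2 (-1.06, adjusted p = 0.0477), without open E9.5 replicate 2 (0.0499) and with the replicate number within stage as a block (-0.66, adjusted p = 0.0143). In closed tissue the stage difference was -0.56 (SE 0.23, adjusted p = 0.387). P4ha1, which encodes the other main subunit of this kind, had -0.43 in open tissue (SE 0.19, adjusted p = 0.273) and -0.15 in closed tissue.

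Bnip3 encodes a mitochondrial protein that marks the organelle for removal. Its signal was 11.80, 11.70 and 11.97 in open E8.5, 11.39 and 11.14 in closed E8.5, 11.54, 11.20 and 11.08 in open E9.5, and 10.91, 10.87 and 10.55 in closed E9.5. Open E8.5 was highest, closed E9.5 lowest, and the other groups overlapped between them. It fell in open tissue by 0.55 (SE 0.14, adjusted p = 0.0482), just inside the threshold. The other differences were just outside or further off: -0.56 between regions at E8.5 (SE 0.16, adjusted p = 0.0571), -0.50 between regions at E9.5 (SE 0.14, adjusted p = 0.0513) and -0.49 in closed tissue between stages (SE 0.16, adjusted p = 0.19). The open stage call was lost without open E8.5 replicate 1 (0.143), open E8.5 replicate 2 (0.0741), open E8.5 replicate 3 (0.186), open E9.5 replicate 2 (0.157), open E9.5 replicate 3 (0.0747), closed E9.5 replicate 1 (0.0618) or closed E9.5 replicate 2 (0.071). With the replicate number within stage as a block both region differences passed, at -0.49 for E8.5 (adjusted p = 0.00787) and -0.50 for E9.5 (adjusted p = 0.00121). Without open E8.5 replicate 3, which that block sets aside, the unblocked E8.5 difference was also -0.49 (adjusted p = 0.214). With the number across stages as a block both region differences passed too, at -0.61 (adjusted p = 0.0349) and -0.50 (adjusted p = 0.0358). Leaving out an array also let them pass: at E8.5 open E9.5 replicate 1 (0.0386), open E9.5 replicate 3 (0.0361) or closed E9.5 replicate 3 (0.0431), and at E9.5 closed E8.5 replicate 1 (0.0487), closed E8.5 replicate 2 (0.0482) or open E9.5 replicate 3 (0.0229).

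Ddit4 encodes REDD1, a brake on mTORC1 signalling that stress and low oxygen induce. Its signal was 7.06, 7.56 and 7.66 in open E8.5, 6.86 and 7.08 in closed E8.5, 8.35, 7.18 and 7.26 in open E9.5, and 6.28, 6.33 and 6.81 in closed E9.5. Open E9.5 replicate 1 stood above every other array. At E9.5 Ddit4 was lower in closed tissue (-1.12, SE 0.29, a fold of 2.18, adjusted p = 0.0313), with all closed arrays below all open arrays. That call was lost without open E9.5 replicate 1 (-0.75, adjusted p = 0.0776), closed E9.5 replicate 1 (-1.02, adjusted p = 0.112) or closed E9.5 replicate 2 (-1.05, adjusted p = 0.116), and without open E9.5 replicates 1 and 2 (-0.79, adjusted p = 0.182). At E8.5 the difference was -0.45 (SE 0.32, adjusted p = 0.684).

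Vegfa, the main growth factor for blood vessels, was higher in every closed array than in every open array of its stage without passing the test. Non-overlap between the regions, in either direction, was met by 27.5% of all genes at E8.5 and 22.5% at E9.5. The signal of Vegfa was 6.36, 5.83 and 6.61 in open E8.5, 6.93 and 6.95 in closed E8.5, 6.64, 6.43 and 6.36 in open E9.5, and 6.82, 6.95 and 7.04 in closed E9.5. The differences were 0.68 at E8.5 (SE 0.20, adjusted p = 0.069) and 0.46 at E9.5 (SE 0.18, adjusted p = 0.16). With the replicate number within stage as a block both passed (0.85, adjusted p = 0.00775, and 0.46, adjusted p = 0.0458). The E8.5 difference also passed without open E8.5 replicate 3 (0.85, adjusted p = 0.0273). That block sets aside the same array at E8.5, so the E8.5 values of 0.85 are not separate results. Its second probe set gave -0.07 at E8.5. Ankrd37, a short ankyrin-repeat protein induced by HIF, differed by -0.38 in open tissue (SE 0.16, adjusted p = 0.234) and by -0.56 in closed tissue (SE 0.18, adjusted p = 0.178), with all E9.5 arrays below all E8.5 arrays in each region. Such non-overlap was met by 21.8% of all genes in open and 21.2% in closed tissue. Kdm3a, a histone demethylase that HIF induces, ranged from 9.95 to 10.28 over the 11 arrays, with no difference beyond 0.25 in size (-0.25 in closed tissue, adjusted p = 0.485).

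Other genes of the same pathways, from lists made for this comparison, were tested in the same fit. Of 37 tested genes of glycolysis, glycogen and pyruvate handling, 0 passed in the open stage comparison by limma, where 5.02% of all genes passed. Of the 37, 8 had an unadjusted p under 0.05 there. At that level P4ha1 (unadjusted p = 0.0459) ranked 2247 by p among all 13338 genes tested. In closed tissue 1 of the 37 fell between the stages (1.46% of all genes). Between the regions, 1 was higher in the closed tube at E8.5 (3.79%) and 2 were lower there at E9.5 (5.79%). Pygb, the brain form of glycogen phosphorylase, was higher in closed tissue at E8.5 (1.47, SE 0.13, adjusted p = 1.39e-05; means 8.89 open and 10.37 closed) and fell in closed tissue by E9.5 (-1.34, SE 0.13, adjusted p = 0.000146). Bpgm, which makes 2,3-bisphosphoglycerate in red cells, was lower in closed tissue at E9.5 (-0.47, SE 0.10, adjusted p = 0.0147). So was Pdp2, a phosphatase that activates pyruvate dehydrogenase (-0.80, SE 0.22, adjusted p = 0.0432).

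Of 51 other tested hypoxia response genes, 3 rose and 3 fell in open tissue, where 3.61% of all genes rose and 1.42% fell, and 1 rose in closed tissue (0.96% of all genes). Between the regions, 6 were lower in the closed tube at E8.5 (3.38% of all genes), and 2 were higher and 6 lower there at E9.5 (2.75% and 5.79%). Ndrg1, a stress and differentiation gene, fell in open tissue (-1.23, SE 0.19, adjusted p = 0.00242) and had a lower signal in closed than in open E8.5 tissue (-1.31, SE 0.21, adjusted p = 0.00187), with group means of 7.52, 6.21, 6.29 and 5.48 in open E8.5, closed E8.5, open E9.5 and closed E9.5. Ak4, a mitochondrial adenylate kinase, fell in open tissue (-0.51, SE 0.09, adjusted p = 0.00717). Igfbp3, which binds insulin-like growth factors, rose in open tissue by 1.42 (SE 0.14, adjusted p = 0.000149) and was lower in closed tissue at E9.5 (-2.20, SE 0.14, adjusted p = 1.18e-06). Bhlhe40, a transcriptional repressor, rose in open tissue by 0.76 (SE 0.10, adjusted p = 0.000965). Maff, a small Maf transcription factor, was lower in closed tissue at E8.5 (-1.19, SE 0.17, adjusted p = 0.000739) and at E9.5 (-1.36, SE 0.15, adjusted p = 9.9e-05). Kdr, the VEGF receptor (0.69, SE 0.14, adjusted p = 0.0098), and Vldlr, a lipoprotein receptor (0.94, SE 0.26, adjusted p = 0.0441), were higher in closed tissue at E9.5, and Tpd52 rose in closed tissue by 0.63 (SE 0.12, adjusted p = 0.0159). The hypoxia response genes thus did not move as a block: in open tissue Higd1a, P4ha2, Bnip3, Ndrg1 and Ak4 fell, while Igfbp3 and Bhlhe40 rose.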

How the data were processed

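RNA of 11 samples was hybridized to an Affymetrix whole-genome mouse array, with 50 ng of RNA labelled in rounds primed with oligo dT, per the labels. The values are log2 signals as deposited by the authors, with MAS5 named in the submitters' processing notes; the normalization behind them is not given in the sources used here. They ran from 2.37 to 14.72, and no value was missing. Genes were named through GEO's platform annotation: of 45101 probe sets 34945 had 1 symbol, 932 several and 9160 none, and 64 were controls. The probe set of highest mean stood for each gene, and 13338 genes with a mean of at least 4.3 were tested.

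limma 3.58.1 (R 4.3.3) fitted 4 group means over all 11 arrays (7 residual degrees of freedom, eBayes with a trend), with Benjamini-Hochberg adjustment over all genes tested, and was tested on simulated data. The 5 comparisons were closed minus open tissue at each stage, E9.5 minus E8.5 in each region, and the change of the region difference between stages. All 36 genes are named whatever their values, those past an adjusted p of 0.05 with every array's value. From each other pathway list the 2 genes of smallest p in each direction and comparison are named among those that passed; marker lists are given by counts and summed levels. The genes and lists were chosen with earlier results of these data known. The number of arrays limits the precision.

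Samples of the same replicate number in a stage deviated together from their group means, which is where the pairing comes from. The correlations were 0.576 and 0.697 for the E8.5 pairs, then 0.308, 0.341 and 0.687 for the E9.5 pairs. Some pairs of unlike number did so too. Open 3 with closed 1 had 0.309 at E8.5. At E9.5 open 2 with closed 1 had 0.317 and open 1 with closed 2 had 0.264. The other unlike pairs were negative. Closed E8.5 had 2 arrays, whose deviations mirror each other, so its correlations come in pairs of equal size and opposite sign. The labels give the numbers and say that embryos were pooled by litter, but not what a shared number means. Alternatives changed the scaling, the probe set, the filter, the variance model, the arrays used, the block and a 3′ to 5′ covariate.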

Additional observations from a re-analysis of the deposited data

Results flagged for a closer look

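Slc2a1 changed differently with stage in the regions: its stage difference in closed tissue minus that in open tissue was 0.63 (adjusted p = 0.0309 in limma), with means of 12.99 and 12.26 in open and 13.03 and 12.93 in closed tissue at E8.5 and E9.5. The same difference was -1.16 for Pygb (adjusted p = 0.00546), whose means were 8.89 and 8.71 in open and 10.37 and 9.03 in closed tissue. It was -1.81 for Igfbp3 (adjusted p = 0.00147), with 7.22 and 8.64 in open and 6.83 and 6.44 in closed tissue. It was -0.77 for Bhlhe40 (adjusted p = 0.0328), with 5.38 and 6.13 in open and 5.72 and 5.71 in closed tissue. It was -0.96 for Idh1, a cytosolic isocitrate dehydrogenase (adjusted p = 0.00686), with 9.97 and 11.31 in open and 10.16 and 10.54 in closed tissue.

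Ldhb had stage differences of opposite sign in the regions, 0.49 in open and -0.39 in closed tissue, with no overlap between the stages in either. Such non-overlap was met by 21.8% of all genes in open and 21.2% in closed tissue. The difference between these stage differences of Ldhb was -0.88 (adjusted p = 0.0886 in limma), short of the threshold.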

How the results depend on the processing

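Counts of the 31 genes past the threshold depended on the processing, and no called difference changed sign in any alternative. Between regions at E8.5 (3 genes) quantile normalization gave 5, and a 3′ to 5′ covariate 7, as did that of Actb alone. At E9.5 (4 genes) array weights gave 10, a fit of only the groups compared 2, and leaving out both open E9.5 replicates 1 and 2 gave 2. For the stage difference in open tissue (5 genes) the second probe set gave 3, array weights 20, and open E9.5 replicate 3 as the sole open E9.5 array 3. Array weights gave open E9.5 replicates 1, 2 and 3 weights of 6.29, 0.74 and 0.31, so that count rests mostly on replicate 1. In closed tissue (0 genes) quantile normalization, the mean of all probe sets, the second probe set and the Actb covariate gave 1 each, and the 3′ to 5′ covariate 2. For the change between stages (1 gene) median centring, the second probe set, no variance trend and open E9.5 replicate 3 as the sole open E9.5 array gave 0; each probe set tested one by one, an alternative added after seeing the data, also gave 0, and either covariate gave 2. Beyond these alternatives' own construction the cause was not tested. Leaving out 1 array at a time gave 2 to 4, 1 to 7, 4 to 9, 0 to 1 and 0 to 1 genes in the same order.

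With the replicate number within stage as a block, the pairing gave 6 genes at E8.5, 7 at E9.5 and 3 for the change between stages; with the number across stages as a block these were 3, 5 and 0, beside 6 in open and 0 in closed tissue. Calls it changed stand beside the genes in the text.

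The digestion time differed with stage, RNA quality differed within groups, closed E8.5 had 2 arrays, and the scaling behind the deposited values is unknown. Small differences, and genes near the filter such as the second probe set of Pfkp, are read least precisely.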

Other observations

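Lists of oxidative phosphorylation, of the tricarboxylic acid cycle and of the pentose phosphate and serine routes were tested in the same fit. Of 58 genes of oxidative phosphorylation, 1 passed in open tissue between the stages, where 3.61% of all genes tested rose and 1.42% fell: Atp5c1, a subunit of ATP synthase, rose by 0.41 (SE 0.07, adjusted p = 0.00465 in limma) and was lower in the closed than in the open E9.5 tissue (-0.33, SE 0.07, adjusted p = 0.00921). In closed tissue 0 of the 58 passed by limma, where 2.42% of all genes did. Of the 58, 1 had an unadjusted p under 0.05 there. At that level Kdm3a (unadjusted p = 0.0481) ranked 1321 by p among all 13338 genes tested. Of 19 genes of the tricarboxylic acid cycle list, 2 rose in open tissue (10.5%, against 3.61% of all genes). Idh1, on that list but a cytosolic isocitrate dehydrogenase outside the mitochondrial cycle, rose by 1.34 (SE 0.10, adjusted p = 2.08e-05). Cs, citrate synthase, rose by 0.44 (SE 0.11, adjusted p = 0.0328). Idh1 (-0.77, SE 0.10, adjusted p = 0.000275) and Idh3a, a subunit of the mitochondrial form (-0.41, SE 0.11, adjusted p = 0.038), had lower signals in closed than in open E9.5 tissue, as did 5.79% of all genes. Of 13 genes of the pentose phosphate and serine routes, 1 rose in open tissue (7.69%, against 3.61% of all genes): Rpia, ribose phosphate isomerase, by 0.70 (SE 0.12, adjusted p = 0.00454). None of these lists is called different from other genes by these counts.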
